A study of Homo sapiens with 8 samples.

Results

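The 10 genes described here encode RNA-binding proteins that act in neurons: the 4 Hu family members ELAVL1, ELAVL2, ELAVL3 and ELAVL4, the splicing regulators NOVA1, NOVA2, RBFOX2 and PTBP2, and the regulators of mRNA stability and translation CELF1 and MSI2. They were chosen by name and not by a rule on their values, though with earlier results of these data known. They are 10 of the 19389 protein-coding genes examined. All poly(A) peaks over the annotated span of each gene and in the 6 kb after its 3′ end were collected.

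The peaks come from poly(A) 3′-sequencing of the MYCN-amplified human neuroblastoma line Kelly and of Kelly E9R, a derivative of that line with a point mutation at the cysteine of CDK12 to which THZ531 binds. THZ531 inhibits the kinases CDK12 and CDK13, which act on elongating RNA polymerase, by covalent binding. Kelly WT cells with DMSO, Kelly WT cells with THZ531, Kelly E9R cells with DMSO and Kelly E9R cells with THZ531 gave 2 libraries each, 8 in all, after 6 h of treatment. The labels give the dose of THZ531 as 400 nM, whereas the study's methods give a lower concentration for these lines. The single list of 153624 peaks was called after the reads of the 8 libraries had been merged, so no value below belongs to 1 treatment or 1 cell line, no value has a replicate, and no comparison of THZ531 with DMSO or of Kelly WT with Kelly E9R was possible.

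The end of an mRNA is set by cleavage of the nascent transcript, usually 10 to 35 bases after a polyadenylation signal (PAS) such as AATAAA, and by addition of a poly(A) tail. Many genes expressed in neurons have long 3′ untranslated regions (UTRs) with several such sites in tandem, and use of a proximal or a distal site decides how many binding sites for microRNAs and RNA-binding proteins the mRNA carries. Hu proteins bind U-rich and AU-rich sequence and are known to act both on mRNA stability and on the choice of poly(A) site, including sites in the ELAVL1 transcript itself. A poly(A) site inside an intron, if used, ends the transcript before the last exon. Oligo(dT), the primer of this assay, can also anneal to A-rich sequence within a transcript, so the genomic sequence after each peak is given throughout.

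Of 296 peaks over the 10 genes, 11 were removed because a stretch of 25 A, with up to 3 mismatches, followed and none of 12 PAS motifs lay in the preceding 100 bp. The 285 retained peaks fell into 38 at the terminal 3′ UTR or past the gene end, 3 at annotated transcript ends further upstream, 11 in other exons and 233 in introns. Each gene had at least 1 terminal peak, as did 67.6% of protein-coding genes. The cells also had terminal peaks at 7 of 7 adrenergic neuroblastoma markers. Of 4 genes of other cell types, MBP, COL1A2 and PTPRC had none, whereas GFAP had 2 peaks, with a highest pileup of 16. Neither GFAP nor the expected markers PHOX2A and DBH had a terminal peak within 200 bp of the outermost annotated end of the gene. Other annotated ends of these genes were not considered.

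Sequences at the 3′ ends of 4 terminal peaks are shown first, because they carry a PAS motif at the usual distance and lie at or near the most distal annotated end of their genes. Each is 30 bases of GRCh38 up to the 3′ end of the peak, read 5′ to 3′ on the strand of the gene, with the motif in capitals.
ELAVL1, chr19:7958575-7958604, reverse strand: ttttggtAATAAAtgaagtgggatcattgc
ELAVL2, chr9:23690104-23690133, reverse strand: agtacatcAATAAAcaaagttgaagggaaa
RBFOX2, chr22:35738735-35738764, reverse strand: ctgtttttaAATAAAagagagaaacaccat
CELF1, chr11:47465939-47465968, reverse strand: tgtttatttgctATTAAActgtttgagaag
The motif starts 23 bp before the peak's end in ELAVL1, 22 bp in ELAVL2, 21 bp in RBFOX2 and 18 bp in CELF1. These peaks ended 2 bp before the last annotated end in ELAVL1, exactly at it in ELAVL2, 1 bp past it in RBFOX2, and 6 bp before it in CELF1.

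Tandem terminal sites were the rule among these genes. The number of terminal peaks was 6 in RBFOX2 and PTBP2, 4 in ELAVL1, ELAVL2, ELAVL4, CELF1 and MSI2, 3 in ELAVL3, 2 in NOVA2 and 1 in NOVA1. Thus 9 of 10 genes had 2 or more, against 58.3% of protein-coding genes with a terminal peak, 8 of 10 had 3 or more, against 29.8%, and 7 of 10 had 4 or more, against 12.6%. Their terminal 3′ UTRs were also longer, with a median of 5.188 kb against 1.474 kb over all such genes, and longer 3′ UTRs hold more peaks. Within bins of genes of like 3′ UTR length, 7 of the 10 exceeded the bin's median number of sites, 1 was equal to it and 2 (NOVA1 and NOVA2) lay below it. The bins match genes by 3′ UTR length only, not by the height of their terminal peaks. The median of the highest pileups was 43 in the 10 genes against 23 over all such genes, and its effect on the counts was not tested. RBFOX2 had 6 sites against a bin median of 3, and 1.83% of the genes in its bin had more. For ELAVL2 and ELAVL4, with 4 sites each against a median of 2, 4.27% and 5.03% of their bins had more. These counts include sites of low −log10 q and sites followed by A-rich sequence. With a −log10 q of at least 5 required, PTBP2 kept 3 of its 6 sites and MSI2 kept 3 of its 4. The other genes kept all of theirs. When only sites with a PAS motif 10 to 35 bp before the end and no A-rich sequence after it were counted, a count chosen after the data were seen, no gene had more than 3, 5 genes (ELAVL1, ELAVL3, ELAVL4, RBFOX2 and PTBP2) exceeded the bin's median, 4 were equal to it and NOVA2 was below. By that count RBFOX2 and ELAVL1 had 3 sites against a median of 2, with 3.96% of their bin higher, and ELAVL4 had 2 against 1, with 10.7% higher. ELAVL2 had 1, equal to the median, with 35.2% of its bin higher.

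**Figure D1:**
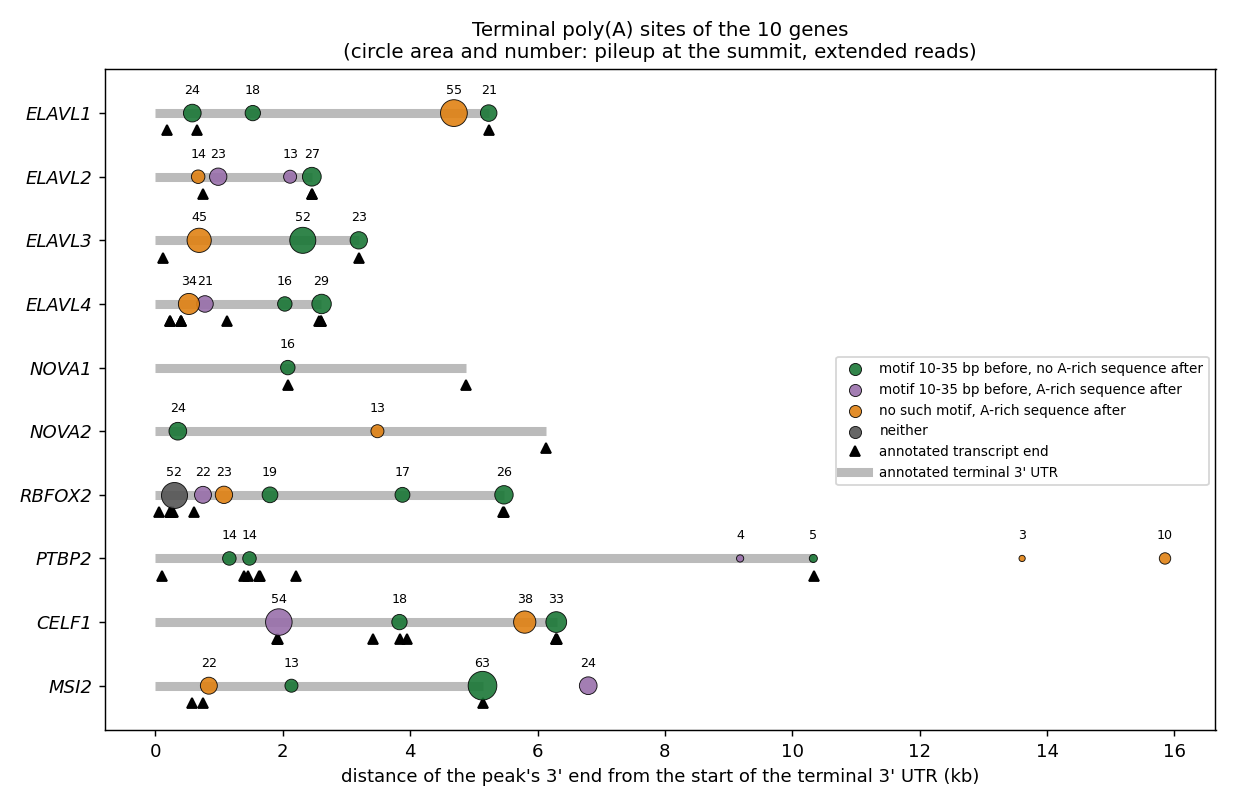
Terminal poly(A) peaks of each gene by the distance of the peak's 3′ end from the start of the terminal 3′ UTR (x axis, kb), with circle area and number giving the pileup at the summit, colours the sequence class, grey bars the annotated 3′ UTR and triangles the annotated transcript ends. NOVA1 has a single site at 2.08 kb, and PTBP2 has its sites in groups at the start, at the end and past the end of its 3′ UTR.

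In ELAVL1 (HuR, reverse strand, chr19:7958573-8005659), the Hu protein found in most cell types, the 4 sites ended 579, 1529, 4687 and 5233 bp after the start of the terminal 3′ UTR. Their pileups, that is the number of extended reads that the peak caller counted over the summit, were 24, 18, 55 and 21. As set out below, this may be a count of distinct read positions rather than of all reads. The third site, chr19:7959121-7959369, had the highest fold enrichment over background of the 4, 18.98, with a −log10 q of 54.3. It lay 548 bp before the annotated end, had AATAAA only 73 bp before its 3′ end, and was followed by A-rich sequence, whereas the other 3 sites had a motif 21 to 23 bp before the end and no A-rich sequence after it. That peak also overlaps the start of a long noncoding RNA gene on the opposite strand, and since peaks carry no strand the reads of the pair cannot be told apart. The most proximal site of ELAVL1 carries ATTAAA and is shown because it lies more than 4 kb from the distal end given above.
ELAVL1 proximal site, chr19:7963229-7963258, reverse strand: agatatatATTAAAcagaaatctaagtaga
ELAVL1 after the site of highest pileup, chr19:7959091-7959120, reverse strand: AAAAAAAAAgAAAAgcccttatcagttttc
Capitals in the second of these sequences, which begins at the base after the peak, mark runs of at least 4 A.

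The 3 neuronal Hu genes, whose proteins are early markers of neuronal differentiation, differed in which site stood highest. In ELAVL2 (HuB, reverse strand, chr9:23690104-23826337) the sites ended 671, 986, 2115 and 2456 bp into the 3′ UTR with pileups of 14, 23, 13 and 27. The distal one, chr9:23690104-23690289, was highest, with a fold enrichment of 12.9 and a −log10 q of 24.3. It was also the sole site of ELAVL2 without A-rich sequence after it.

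ELAVL3 (HuC, reverse strand, chr19:11451326-11481046) had its highest site in the middle. Its 3 sites, at 687, 2314 and 3193 bp, had pileups of 45, 52 and 23. The middle site, chr19:11452215-11452689, had a fold enrichment of 11.6 and a −log10 q of 37.5 and lay 889 bp before the annotated end, where the last site ended 10 bp short of it. The proximal site had no PAS motif and was followed by A-rich sequence.
ELAVL3 middle site, chr19:11452215-11452244, reverse strand: aagtggaatcATTAAAgtaataataattat
ELAVL3 after the proximal site, chr19:11453812-11453841, reverse strand: AAAAAAAAgAAAAtattttggcaggttatg

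In ELAVL4 (HuD, forward strand, chr1:50048014-50203772) the sites at 526, 778, 2032 and 2609 bp had pileups of 34, 21, 16 and 29. The most proximal, chr1:50201286-50201701, had the highest −log10 q, 24.8, with a fold enrichment of 10.8, but no motif within 10 to 35 bp and A-rich sequence after it. Of the sites without A-rich sequence, the distal one, chr1:50203664-50203784, was the higher, with a fold enrichment of 9.40 and a −log10 q of 19.6, and it ended 12 bp past the annotated end. Among the sites with a motif at 10 to 35 bp and no A-rich sequence, the distal one was thus the higher in ELAVL4, 29 against 16, whereas the proximal one was higher than the distal one in ELAVL1, 24 against 21, and the middle one in ELAVL3, 52 against 23. ELAVL2 had only 1 site of this kind. No replicate error is known for these differences, and single libraries or treatments may differ from the pool.

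NOVA1 and NOVA2, which bind clusters of YCAY and regulate splicing and poly(A) site choice in the brain, had the fewest sites. The single terminal site of NOVA1 (reverse strand, chr14:26443090-26598033) was chr14:26445883-26445996. Its pileup was 16, its fold enrichment 11.3 and its −log10 q 16.4, and it ended 5 bp past an annotated end in the middle of the 3′ UTR. No retained peak lay at the distal annotated end, 2793 bp further on. NOVA2 (reverse strand, chr19:45933734-45974044) had a site with a pileup of 24 (fold enrichment 14.5, −log10 q 25.2) 352 bp into its 6.132 kb 3′ UTR, and a second with a pileup of 13 at 3486 bp. Neither was near its single annotated end, from which the closer lay 2646 bp away, and the second had no motif and was followed by long runs of A.
NOVA1 terminal site, chr14:26445888-26445917, reverse strand, ending 5 bases before the end of the peak: catTATAAAtgtgcttagttcatcatgtag
NOVA2 proximal site, chr19:45939514-45939543, reverse strand: tAATAGAaaacaaagcgttattttctcttt
NOVA2 after the second site, chr19:45936350-45936379, reverse strand: gAAAAAAAAAAAAAgacagAAAAAAgctct
These sequences are shown because the retained terminal sites of both genes with a motif use a variant of the signal in place of AATAAA.

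RBFOX2 (reverse strand, chr22:35738736-36028824), a splicing regulator that binds TGCATG in DNA letters, had 6 sites over 5.183 kb. Their pileups from proximal to distal were 52, 22, 23, 19, 17 and 26. The proximal site, chr22:35743918-35744211, stood highest (fold enrichment 14.6, −log10 q 43.9), ended 15 bp past an annotated end, and had neither a PAS motif nor A-rich sequence. The distal site, whose sequence is given above, had a fold enrichment of 9.85 and a −log10 q of 18.8. Sites 4 and 5, 1799 and 3879 bp into the 3′ UTR, had a motif 25 and 21 bp before the end and no A-rich sequence, but lay more than 1 kb from any annotated end.

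PTBP2 (forward strand, chr1:96721777-96823738), the paralogue of PTBP1 that is induced as neurons differentiate, had the lowest terminal peaks of the 10 genes. The 2 proximal sites, 1161 and 1477 bp into the 3′ UTR, each had a pileup of 14, a fold enrichment of 8.47 and a −log10 q of 11.1. Both carry AATAAA, 23 and 20 bp before the end, without A-rich sequence.
PTBP2 first site, chr1:96814534-96814563, forward strand: tgactttAATAAAaacatggctcagaatct
PTBP2 second site, chr1:96814850-96814879, forward strand: tagcatgctcAATAAAcacttctgtagctc
The next sites followed only 7704 bp later, at 9181 and 10331 bp, with pileups of 4 and 5 and −log10 q of 2.585 and 3.859. The second of these ended 5 bp before the end of the longest annotated 3′ UTR. Another pair lay 3273 and 5517 bp past the gene end, with pileups of 3 and 10, and the nearer had a −log10 q of 1.307. The last, chr1:96829094-96829255, had the highest −log10 q of the terminal sites of PTBP2, 12.1, but no motif within 10 to 35 bp and A-rich sequence after it, and its assignment to PTBP2 rests on distance alone.

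CELF1 (reverse strand, chr11:47465933-47553132), which binds GU-rich elements and promotes mRNA decay, had 4 sites at 1938, 3832, 5799 and 6294 bp with pileups of 54, 18, 38 and 33. The first, the second and the last site each lay within 21 bp of an annotated end. The first, chr11:47470295-47470464, stood highest, with a fold enrichment of 15.4 and a −log10 q of 46.8, an AATAAA 26 bp before its end and A-rich sequence after it. The third had no motif, and the sequence after it is shown for comparison with the distal site above.
CELF1 after the third site, chr11:47466404-47466433, reverse strand: tgaagagAAAAAAAAAttgccactatgacc

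MSI2 (forward strand, chr17:57255851-57684689), a Musashi protein that represses translation in progenitor cells, had sites at 839, 2136 and 5136 bp and a last one 1655 bp past the annotated end, with pileups of 22, 13, 63 and 24. The third, chr17:57684509-57684684, was the highest terminal peak of the 10 genes, with a fold enrichment of 15.3 and a −log10 q of 53.1. Over the 10 genes the pileup of the highest terminal site ranged from 14 in PTBP2 to 63 in MSI2, with a median of 43 against 23 over all protein-coding genes with a terminal peak. The order was MSI2 with 63, ELAVL1 with 55, CELF1 with 54, ELAVL3 and RBFOX2 with 52, ELAVL4 with 34, ELAVL2 with 27, NOVA2 with 24, NOVA1 with 16 and PTBP2 with 14. Without replicates it is not known which neighbours in this order differ. The highest pileup in the whole list, 200, equals the number of positions that 100 bp of extension allows on both strands. If duplicate reads were removed, the pileup counts distinct read positions rather than all reads and is at most a capped measure of abundance. The sources do not state whether duplicates were removed, and the peak-calling settings that the study lists name no option for them.

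Neighbouring terminal sites of a gene lay 252 to 7704 bp apart in 28 pairs, with a median of 1202 bp (quartiles 533 and 1995 bp). The longest distance ended at a site of PTBP2 with a −log10 q of 2.585. In 14139 pairs of all protein-coding genes the median was 947 bp (quartiles 503 and 1906 bp). The shortest distance was between the first and second site of ELAVL4, and 12 of the 28 pairs lay under 1000 bp apart, against 52.0% of the pairs of all protein-coding genes. From first to last site the span was 1.785 kb in ELAVL2, 2.083 kb in ELAVL4, 2.506 kb in ELAVL3, 3.134 kb in NOVA2, 4.356 kb in CELF1, 4.654 kb in ELAVL1, 5.183 kb in RBFOX2, 5.957 kb in MSI2 and 14.69 kb in PTBP2. Of the 38 terminal sites, 16 lay within 100 bp of an annotated transcript end and 18 within 200 bp. The remainder had no end of a basic transcript of GENCODE release 44 that close. No share over all protein-coding genes is given for this measure, so it is not a trait of these genes.

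The sequence at the terminal sites was compared with that of all protein-coding genes, and, as background, with the same search on the other strand of each peak, mirrored about it. A PAS motif starting 10 to 35 bp before the 3′ end was present at 27 of 38 sites, or 71.1% (55.2 to 83.0%, the 95% Wilson interval), and at 28.9% on the opposite strand. The share over all protein-coding genes was 67.5%, inside that interval. A-rich sequence, defined as a run of 6 A, or 7 A among 10 bases, in the 50 bp after the peak, followed 17 of 38 sites, or 44.7% (30.2 to 60.3%), against 23.7% on the opposite strand. That share exceeded the 25.6% of all protein-coding genes, which lies below the interval. Both properties together, a motif at 10 to 35 bp and no A-rich sequence, were found at 20 sites, or 52.6% (37.3 to 67.5%), against 15.8% on the opposite strand and 55.3% over all protein-coding genes. By this measure ELAVL1, RBFOX2 and PTBP2 had 3 such sites each, ELAVL3, ELAVL4, CELF1 and MSI2 had 2, and ELAVL2, NOVA1 and NOVA2 had 1. The intervals cover counting error only, and sites of 1 gene are not independent. Whether the peaks before A-rich sequence arose by priming within the transcript was not tested.

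AATAAA was the best motif in the 100 bp at 16 sites and ATTAAA at 8, and 6 sites had none. Letters bound by some of these proteins were searched on the strand of the gene, from 100 bp before to 50 bp after the 3′ end. A run of 6 T, as in U-rich elements, was present at 16 of 38 sites, or 42.1% (27.9 to 57.8%), against 24.4% of terminal peaks of all protein-coding genes and 23.7% on the opposite strand. ATTTA, the core of AU-rich elements, was present at 34.2% against 32.8%, TGTGTG at 13.2% against 10.98%, and TGCATG at 1 of 38 sites against 4.44%. TGTA, the core of Pumilio sites, lay before the end of 47.4% against 51.0%, and YCAY was found at 84.2% against 87.4%. A match of these short motifs describes letters and not binding.

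**Figure D2:**
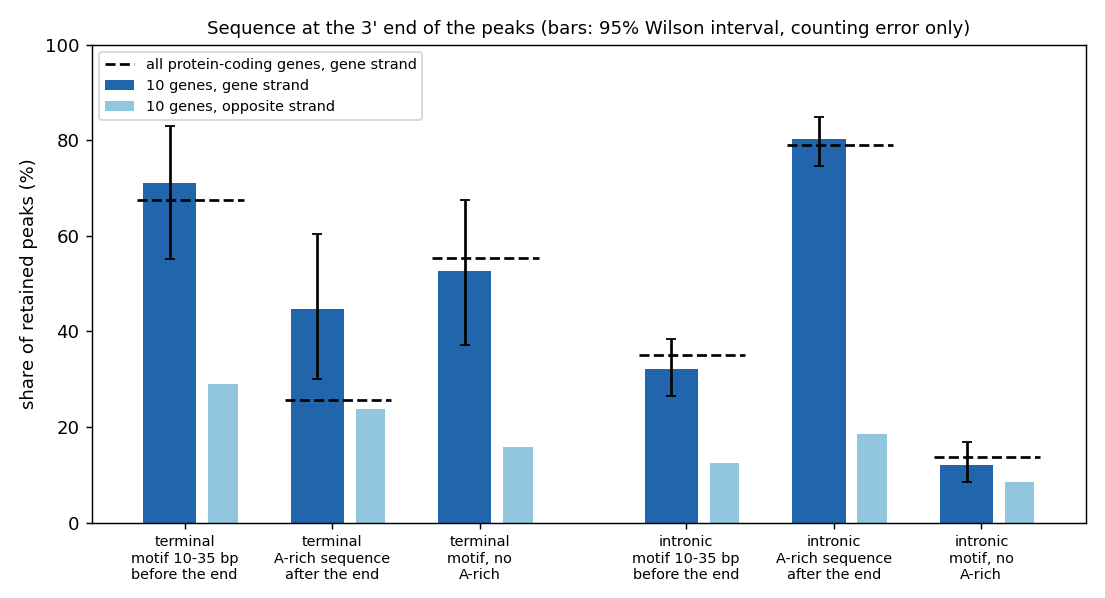
Share of retained terminal and intronic peaks (y axis, %) with a PAS motif 10 to 35 bp before the 3′ end, with A-rich sequence after it, and with the motif but no A-rich sequence, for the 10 genes on the gene strand (dark bars, 95% Wilson interval), on the opposite strand (light bars) and for all protein-coding genes (dashed lines). A-rich sequence followed 44.7% of terminal and 80.3% of intronic peaks of the 10 genes.

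A peak at an annotated transcript end upstream of the terminal 3′ UTR was found in ELAVL4, NOVA1 and MSI2. The share of all protein-coding genes with such a peak is not given, so having one is not a trait of these genes. In ELAVL4 it was chr1:50181183-50181299, 133.3 kb from the gene start, with a pileup of 20, a fold enrichment of 11.4 and a −log10 q of 18.2. It ended 1 bp before an annotated end. In NOVA1 it was chr14:26470117-26470247, with a pileup of 18 and a fold enrichment of 11.5, which is slightly above the pileup of 16 at the sole terminal site of that gene. MSI2 had the lowest of the 3, chr17:57633082-57633183, with a pileup of 11 and a fold enrichment of 6.49 beside a pileup of 63 at its distal end. All 3 had AATAAA 20 to 22 bp before the end and no A-rich sequence after it. Over all protein-coding genes, 55.0% of 1842 peaks of this class had a motif at 10 to 35 bp and no A-rich sequence. The 3 peaks are shown because such ends give transcripts with a different last exon.
ELAVL4 early end, chr1:50181270-50181299, forward strand: tgggaaggagAATAAAaagcaaacaaatga
NOVA1 early end, chr14:26470117-26470146, reverse strand: aaaccaaaAATAAAaaatacagaaaactat
MSI2 early end, chr17:57633154-57633183, forward strand: gaggtagaaaAATAAAttgtttaccatgga
Among the 11 peaks in other exons, the highest was chr14:26597525 onwards in the first 0.509 kb of NOVA1, with a pileup of 24 and a fold enrichment of 14.5, and A-rich sequence followed it. The others had pileups of 6 to 15, 5 of them in MSI2.

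Intronic peaks made up 233 of the 285 retained peaks. They were also the largest class over all protein-coding genes. There, peaks without a gene on the opposite strand were 76312 intronic, 21975 terminal, 10302 in other exons and 1842 at other ends. The 10 genes are longer, with a median of 119.1 kb against 29.79 kb over genes with a terminal peak. All 10 genes had at least 1, as did 75.5% of protein-coding genes with a terminal peak and an intron. The counts were 76 in MSI2, 46 in RBFOX2, 27 in ELAVL4, 18 in NOVA1, 17 in CELF1, 16 in PTBP2, 15 in ELAVL2, 9 in ELAVL3, 7 in ELAVL1 and 2 in NOVA2. Long genes hold more such peaks, so each gene was set beside the 639 genes of its length bin, 1 of 20 such bins. The count exceeded the bin's median in 9 of the 10, and NOVA2 fell short of it. The bins match genes by length only, not by the height of their terminal peaks. ELAVL3, at 29.72 kb, had 9 against a median of 3, and 0 of the 639 genes of its bin had more. CELF1 had 17 against 8, with 1.57% of its bin higher, and ELAVL4 had 27 against 14, with 2.03% higher. MSI2, at 428.8 kb, had 76 against 32, with 9.86% higher, in a bin that also holds far longer genes. ELAVL2 had 15 against 14 and stood close to the median. Per 100 kb of intron the density ran from 6.25 in NOVA2 to 36.03 in ELAVL3.

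**Figure D3:**
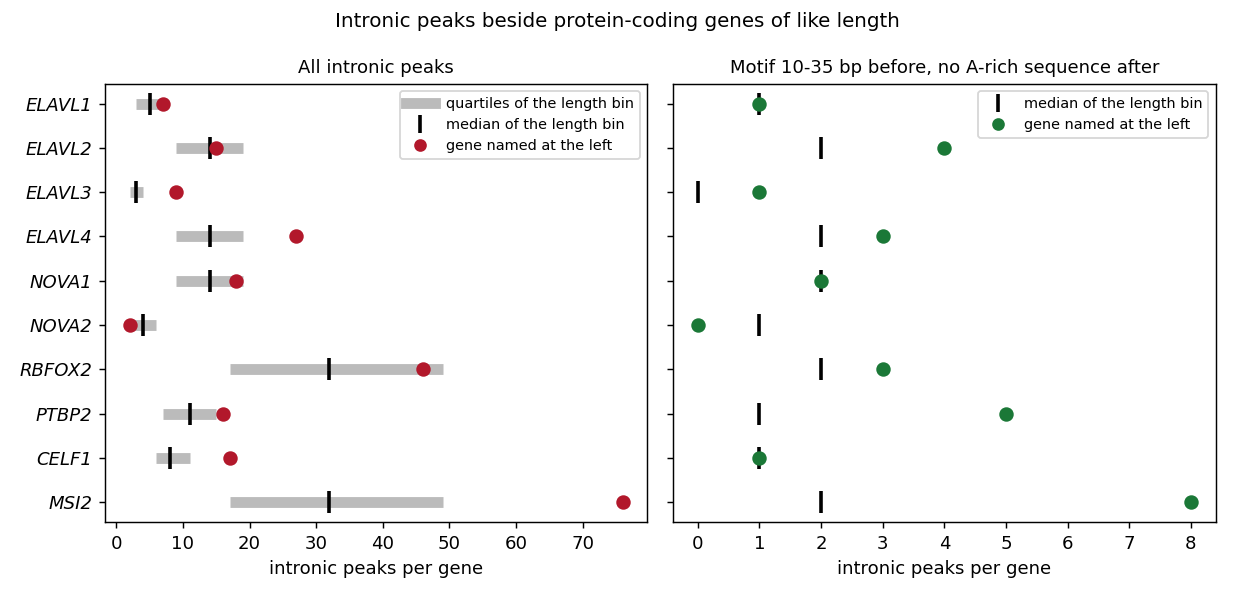
Intronic peaks per gene (x axis) for each of the 10 genes (circles) beside the median (black ticks) and, at left, the quartiles (grey bars) of genes in the same length bin, for all intronic peaks (left) and for those with a PAS motif 10 to 35 bp before the end and no A-rich sequence (right). The count exceeds the bin's median in 9 genes at left and in 6 at right, where 3 are equal to it.

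Most of these peaks lay before A-rich sequence. It followed 187 of 233, or 80.3% (74.7 to 84.9%), against 18.5% on the opposite strand of the same peaks, and the share over all protein-coding genes was 79.0%. A motif at 10 to 35 bp was present at 32.2% (26.5 to 38.4%) against 12.4% on the opposite strand, near the 35.2% of all genes. Motif and no A-rich sequence were found together at 28 peaks, or 12.02% (8.45 to 16.8%), against 8.58% on the opposite strand and 13.7% over all genes. The 10 genes thus did not stand apart from other genes in these shares, and for motif without A-rich sequence the share of the opposite strand lay inside the interval. Counting only those 28 peaks, 6 of the 10 exceeded the bin's median, 3 were equal to it and NOVA2, with 0, was below. MSI2 had 8 against a median of 2, PTBP2 had 5 against 1, ELAVL2 had 4 against 2, ELAVL4 and RBFOX2 had 3 against 2, and ELAVL3 had 1 against 0. The share of the bin with fewer was 93.4% for MSI2, 92.2% for PTBP2 and 79.7% for ELAVL2. It was only 64.8% for ELAVL4, 61.2% for ELAVL3 and 55.4% for RBFOX2, which thus lay near the middle of their bins. ELAVL3 and CELF1, which stood out by all peaks, had only 1 each of this kind.

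Intronic peaks were lower than terminal ones. Their pileups ranged from 3 to 41 with a median of 10, whereas terminal peaks of the 10 genes had a median of 22. Over all protein-coding genes the medians were 8 and 17. A −log10 q of 5 or more was reached by 186 of 233 intronic peaks, against 68.4% of those of all protein-coding genes, and by 34 of 38 terminal peaks, against 90.6%. Another annotated gene lay over 6 of the 233 intronic peaks, and no share over all protein-coding genes is given for this.

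The strongest intronic peak by −log10 q lay in ELAVL1, chr19:7982501-7982629, in intron 2, 23.16 kb from the gene start. Its pileup was 30, its fold enrichment 19.9 and its −log10 q 37.6, so its pileup exceeded those of the terminal sites at 579, 1529 and 5233 bp. It had AATAAA 36 bp and a weaker variant of the signal 18 bp before the end, and no A-rich sequence.
ELAVL1 intron 2, chr19:7982501-7982530, reverse strand: attcattttaaaAAGAAAgtggcaaacctg
Next was chr22:35838219-35838378 in intron 2 of RBFOX2, with the highest intronic pileup, 41, a fold enrichment of 15.2 and a −log10 q of 37.1, but with AATAAA 96 bp away. In MSI2 the strongest was chr17:57410417-57410594 in intron 6 (pileup 32, −log10 q 34.6), and in PTBP2 it was chr1:96803293-96803418 in intron 8 (pileup 34, −log10 q 28.99), which is more than double the pileup of any terminal site of PTBP2. Both were followed by A-rich sequence, as were the strongest in ELAVL4 (pileup 27, −log10 q 27.7), CELF1 (21 and 19.5) and NOVA2 (8 and 5.97). In NOVA1 the strongest had a pileup of 17 and a −log10 q of 21.9, with AATAAA 38 bp before its end and no A-rich sequence. The strongest of ELAVL3, with a pileup of 34 and a −log10 q of 21.9, lay 1.832 kb from the gene start and had neither motif nor A-rich sequence. ELAVL2 had its strongest in intron 1, chr9:23804144-23804289, with a pileup of 17 and a −log10 q of 20.1, AATAAA 21 bp before the end and no A-rich sequence.

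For contrast, the sequences before 5 intronic peaks with a motif at 10 to 35 bp and no A-rich sequence, the strongest of this kind in their genes, stand beside the sequence after the strongest A-rich peak of CELF1.
ELAVL2 intron 1, chr9:23804144-23804173, reverse strand: taaataaatAATAAAtccatcttttaaaca
ELAVL3 intron 1, chr19:11477293-11477322, reverse strand: aagaccctgtctcaaaAATAAAcaaggaaa
ELAVL4 intron 1, chr1:50120346-50120375, forward strand: catatgAATAAAggcatagagatgggaact
RBFOX2 intron 2, chr22:35850827-35850856, reverse strand: ttttAATAAAcattaattttcactttctgc
PTBP2 intron 2, chr1:96735685-96735714, forward strand: aaAATAAAaataacttagaatttagcacag
CELF1 after the intron 9 peak, chr11:47481087-47481116, reverse strand: AAAAAAAAAAAAAAgaagaagAAAAAAAAA
The peaks with a motif had pileups of 17 in ELAVL2, 27 in ELAVL3, 11 in ELAVL4, 13 in RBFOX2 and 15 in PTBP2, and −log10 q values of 20.1, 15.8, 5.53, 11.6 and 12.4. Of these, the peak of PTBP2 was about as high as its proximal terminal sites, at 14, and that of ELAVL3 was higher than its distal site, at 23.

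**Figure D4:**
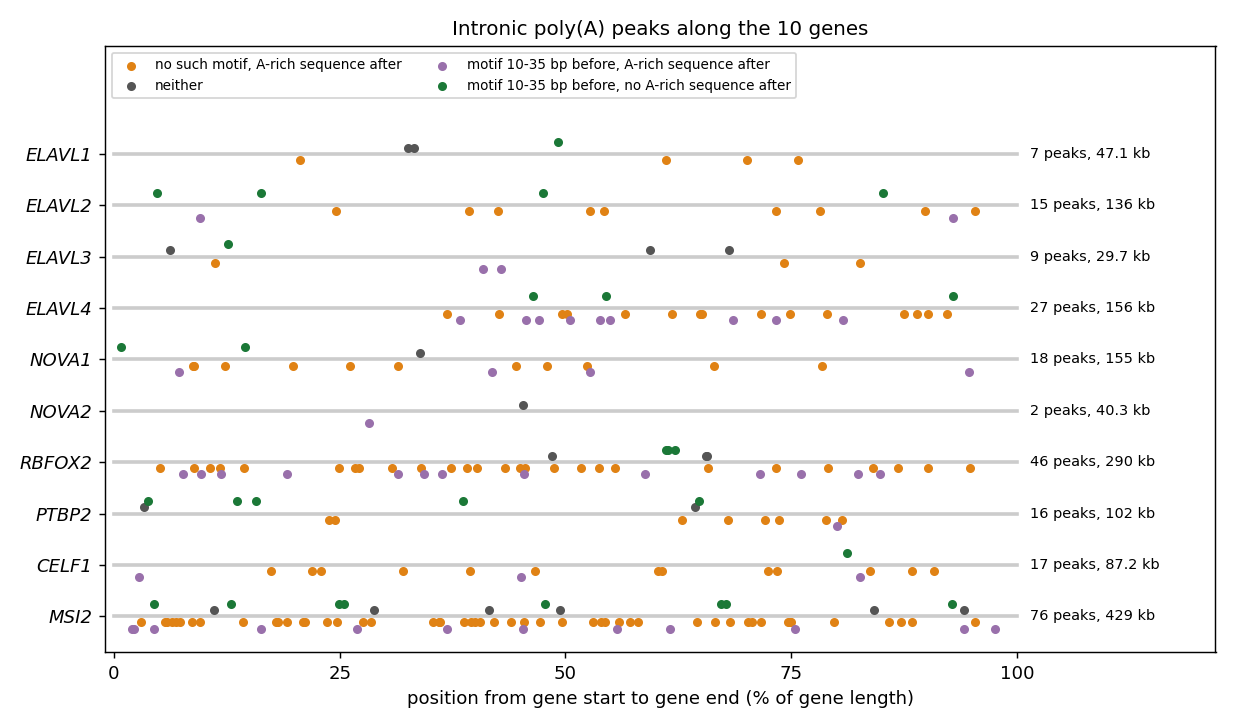
Position of each intronic peak from gene start to gene end (x axis, % of gene length), coloured by sequence class and offset vertically by class, with the number of peaks and the gene length at right. Orange and purple points, with A-rich sequence after the peak, make up 187 of 233, and the 3 green points of RBFOX2 lie close together in intron 2.

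Within genes the peaks followed the long introns, with exceptions. In NOVA1, intron 2 (115.3 kb, 77.9% of the intron length) held 15 of 18 peaks, and in MSI2 introns 5, 6 and 7 held 29, 25 and 12 of 76. RBFOX2 had 13 peaks in intron 1 and 25 in intron 2, which take 31.6% and 45.5% of its intron length. In PTBP2, intron 8 (21.7% of the intron length) held 9 of 16 peaks, against 6 in intron 2 (30.9%). CELF1 had 8 of 17 in intron 1, which is 65.8% of its intron length, and 3 in intron 9, which is 4.73%. Intron 1 of ELAVL4 held 12, intron 2 held 8 and intron 3 held 5, and 2 further peaks lay upstream of the first exon of the canonical transcript. The 3 peaks of RBFOX2 with motif and no A-rich sequence all lay in intron 2, at 177.5, 178.0 and 180.1 kb from the gene start, with pileups of 11, 13 and 12. In MSI2 the 8 such peaks were spread from 18.82 to 397.8 kb, and in PTBP2 the 5 lay between 3.878 and 66.11 kb, 3 of them in intron 2.

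Beside the 10, a list of 28 other genes of the same families and of related regulators of splicing and mRNA fate was examined. A terminal peak was found in 26 of 28, and CELF5 and KHDRBS2 had none. Of the 26, 25 had 2 or more terminal sites and 21 had 3 or more, or 96.2% and 80.8%, beside 90.0% and 80.0% of the 10 genes. The list had 4 or more in 7 of 26, or 26.9%, beside 70.0%, with a median of 3 sites and a median 3′ UTR of 2.842 kb. CELF2 had the most, 6, followed by CELF4, FXR1 and PUM2 with 5 each. Of these sites, 2 in CELF2, 0 in CELF4, 3 in FXR1 and 4 in PUM2 had a motif in the 100 bp and no A-rich sequence. The 26 genes had a median of 14.5 intronic peaks at a median gene length of 118.3 kb. The 10 genes were close to that, with 16.5 at 119.1 kb. RBFOX1 had 237 intronic peaks and RBMS3 had 120, in genes of 2474 and 1434 kb, and MBNL1 and SRRM4 had 33 each. Only 3 of these peaks in RBFOX1, 5 in RBMS3, 2 in MBNL1 and 9 in SRRM4 had such a motif and no A-rich sequence. Paralogues of the members had terminal sites of their own: 3 in PTBP1, with a highest pileup of 37, against 14 in PTBP2, and 2 in MSI1, with 13, against 63 in MSI2. The median of the highest pileups was 29 in this list and 43 in the 10 genes.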

How the data were processed

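According to the labels and the study's methods, reads of QuantSeq 3′ REV libraries, which begin where the poly(A) tail joins the transcript, were filtered with BBDuk, mapped with STAR 2.5.1b to GRCh38 and merged over all libraries. Peaks were called with MACS2 2.1.1 with reads extended to 100 bp. The deposited list gives for each peak a score, a fold enrichment (the ratio of pileup to local background) and the −log10 of the p-value and of the q-value, all computed by the authors. It has 0 columns of values per sample and no strand, so depth per library is unknown and nothing was tested between groups.

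The whole-number pileup was recovered from the deposited fold enrichment and p-value with the Poisson formulas of MACS2, for 100% of peaks, after the step had been tested on simulated data. No peak (0) passed the end of a GRCh38 chromosome. Peaks of the 10 genes were annotated with the basic transcripts of GENCODE release 44, with an overlap of at least 1 bp. Terminal peaks overlap the last exon from the stop codon on, or lie within 6 kb past the gene end over no other gene. Intronic peaks overlap no exon and no annotated end with its margins of 200 bp upstream and 600 bp downstream. The strand of a peak is that of the gene, and its 3′ end is the outer edge of the peak on that strand. Motifs and A-rich sequence were searched from that edge and not from the summit. In wide peaks the main cleavage position may lie further inside. For all protein-coding genes, shares of peaks with a sequence feature, pileups by class and shares by −log10 q used only peaks that no gene of the opposite strand overlaps. Peaks of the 10 genes were not filtered in this way. Counts of peaks per gene, bin medians, spacings and highest pileups per gene used all retained peaks. The bins were 20 of like gene or 3′ UTR length, among genes with a terminal peak. The 12 PAS motifs are AATAAA and its forms with another first base (TATAAA or CATAAA or GATAAA), another second base (ATTAAA or AGTAAA or ACTAAA), or a change nearer the end (AAGAAA or AATGAA or AATATA or AATACA or AATAGA). The best of them in the study's order was given. Letters were searched as exact matches. Coordinates count from 1. All 10 genes are named. Single peaks are the most proximal, the most distal and the strongest terminal site and the strongest intronic peak, and peaks at early ends and in first exons were added after their values were seen. The members and lists were chosen with earlier results of these data known. Computation used Python 3.11.15, NumPy 2.4.6, pandas 2.3.3 and SciPy 1.17.1.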

Additional observations from a re-analysis of the deposited data

How the results depend on the processing

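Counts were recomputed with 600 bp in place of 6 kb past the gene end, without removal of peaks, with a minimum −log10 q of 5, with a PAS motif required, without peaks over another gene, and with other motif or A-rich definitions. Over the settings that changed little, retained peaks ranged from 233 to 296 (285 as reported), terminal sites from 32 to 38, the median spacing from 1040 to 1202 bp and intronic peaks from 186 to 244. Requiring a PAS motif in the 100 bp left 129 of 233 intronic peaks. The next settings were chosen after the data were seen. With a motif in the 100 bp and no A-rich sequence, 20 terminal sites remained, with a median spacing of 1837 bp, and 36 intronic peaks. With the motif at 10 to 35 bp and no A-rich sequence, 20 terminal sites and 28 intronic peaks remained. Of the intronic peaks, 15.45% had a motif in the 100 bp and no A-rich sequence, and 54.08% when only a 25-A stretch counted as A-rich, since few peaks have so long a stretch. The share in that 100 bp window was 27.04% on the opposite strand, above that on the gene strand. No paired analysis was possible because the list holds no value per library. The list holds only sites called above the background of the pool, so for a site absent from it, as at the distal end of NOVA1, low use and no use cannot be told apart. Counting error only is covered by the intervals.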
